A study of Mus musculus and Rattus norvegicus with 32 samples.

Results

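The genes examined here encode the subunits of the proteasome, the chambered protease that degrades ubiquitin-tagged proteins, and a pair of ubiquitin ligases of striated muscle. Members were all rows with a symbol of the Psma, Psmb, Psmc or Psmd series followed by a number, without the inducible subunits Psmb8, Psmb9 and Psmb10, plus Fbxo32 (atrogin-1) and Trim63 (MuRF1). This gave 38 of 55487 genes in each mouse table and 37 of 32883 in the rat table, which has no row for Psma3. A rat row named Psma3l, at 2251 to 2687 counts, lies outside the rule and was not included.

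The core particle of the proteasome is a barrel of alpha subunits, which form its gate, and beta subunits, some of which cut peptide bonds. The regulatory particle binds the ends of the barrel. Its base holds the ATPases that unfold substrates, and its lid holds the enzyme that removes ubiquitin chains. Fbxo32 and Trim63 attach ubiquitin to muscle proteins and are best known as transcripts that rise in wasting muscle, where FoxO transcription factors induce them. By these roles the mouse members comprised 8 alpha, 8 beta, 6 ATPase, 3 other base and 8 lid subunits. The remaining Psmd genes, Psmd5, Psmd9 and Psmd10, encode 3 chaperones that assemble the base and leave the finished particle.

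The study asked how METTL5, a methyltransferase of ribosomal RNA, acts in heart muscle at rest and under load, and RNA was sequenced in 8 groups of 4 libraries. In C57BL/6 mice, hearts labelled Mettl5-KO or Ctrl were taken at an age of 1 month, and hearts labelled Mettl5-cKO or Ctrl at 3 months. Further Mettl5-cKO and Ctrl hearts, labelled as 3 months old, were collected 4 weeks after transverse aortic constriction (TAC), which narrows the aorta and loads the left ventricle. The cKO allele is a floxed Mettl5 allele deleted by Cre under the cardiomyocyte promoter Myh6, so the other cells of those hearts keep the gene, and the controls were littermates. Neonatal rat ventricular cardiomyocytes (NRVMs) of Sprague Dawley rats at postnatal day 2 carried an adenovirus for GFP (AdGFP) or for human METTL5 (AdMETTL5), and all NRVMs had 20 μM phenylephrine (PE), a hypertrophic agonist, for 24 h. The NRVMs were pre-plated to remove fibroblasts, and fibroblast markers summed to between 9085 and 12107 CPM there (CPM, counts scaled to the size of the library).

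Library totals were 19899033 to 21804907 estimated counts for hearts, 17344430 to 18085339 for AdGFP and 14324700 to 14642431 for AdMETTL5. The count of Mettl5 did not separate the heart genotypes (1 month, 4.51 to 5.94 CPM in controls and 5.26 to 6.71 in METTL5-KO; 3 months, 6.87 to 8.12 and 5.61 to 7.28; after TAC, 5.62 to 7.14 and 5.60 to 7.32). A gene-level count also holds reads outside deleted exons and, in METTL5-cKO hearts, from other cells, so it is no check of the labels. The paper reports that reads of the floxed exons were nearly absent in METTL5-cKO hearts. It does not describe METTL5-KO as limited to a cell type. In NRVMs rat Mettl5 was 17.0 ± 0.77 CPM with AdGFP and 21.2 ± 1.76 with AdMETTL5 (mean ± SD, n = 4). The virus carried human METTL5 and reads were aligned to the rat genome, so this row does not measure the transgene. Whether human reads add to it was not tested. At 1 month, control library 1 correlated least with the other libraries (mean r 0.94 within its group), and control libraries 1 and 3 had the extreme scaling factors (1.25 and 0.80). After TAC, METTL5-cKO library 4 correlated more closely with the controls (mean r 0.974) than with its own group (0.969). For several of the members named, fits without these libraries are given too. Nothing in the labels says that libraries of a group came from separate animals or cultures, so p-values measure the spread between libraries, which may be technical.

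Median levels of subunit transcripts differed by role, with ranges that overlapped, and these differences were not tested. Levels between genes were compared as CPM per kilobase of the longest protein-coding transcript in GENCODE vM21, with the 24 heart libraries scaled together. In control hearts after TAC, the 7 beta subunits tested ranged from 41.2 to 102 CPM per kb with a median of 61.1. Medians were 44.1 for the 7 alpha subunits tested, 37.98 for the ATPases, 32.9 for the other base subunits and 30.0 for the lid subunits. Their ranges were 15.6 to 62.6, 23.8 to 59.8, 25.1 to 37.2 and 14.9 to 37.8. Psma2 and Psma3 were divided by 2.91 and 2.85 kb but Psma6 by 1.04 kb. Which transcript the hearts used was not tested, so levels of single genes depend on the annotation. Psmb6, which carries the caspase-like cutting site, had the highest level at 102 ± 5.44 CPM per kb (SD, n = 4). The base chaperones lay far below, with Psmd9 at 4.05 ± 0.29, Psmd10 at 3.38 ± 0.27 and Psmd5 at 2.35 ± 0.16 CPM per kb. Every one of the 31 tested subunits proper exceeded them, the lowest being Psmd14, the deubiquitinase of the lid, at 14.9 ± 2.19. Trim63 (30.5 ± 6.58) stood among the lid subunits, whereas Fbxo32 (6.82 ± 3.18) stood between them and the chaperones, with the widest spread relative to its mean of the members tested. The testis subunit Psma8 (0.18 ± 0.065 CPM per kb) and the thymus subunit Psmb11 (at most 2 counts in a heart library after TAC) were close to absent. They failed the filter on low counts in every table, which left 36 members to test in each mouse table and 35 in the rat table.

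**Figure D1:**
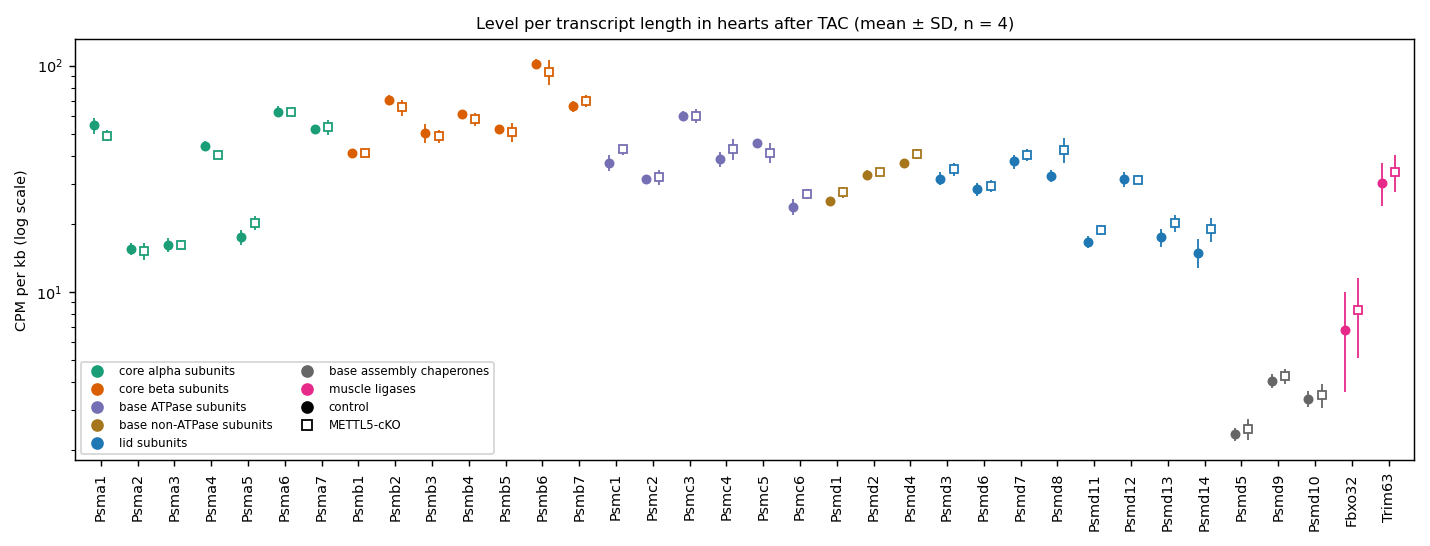
Level of each tested member in hearts after TAC, as CPM per kilobase on a log scale; filled circles, control, and open squares, METTL5-cKO (mean ± SD, n = 4), coloured by role. Psmb6 is highest, at 102 CPM per kb in controls, and the chaperones Psmd5, Psmd9 and Psmd10 are lowest.

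On that scale the median beta subunit was 46.0 CPM per kb in controls at 1 month, 52.5 at 3 months and 61.1 after TAC. The medians of the alpha subunits (32.8, 39.8 and 44.1) and of the lid subunits (20.0, 27.6 and 30.0) had the same order. Fbxo32 (6.28, 7.998 and 6.82) did not. Age, surgery and the preparation of each table cannot be told apart in these values, and they were not tested. In bulk tissue, fewer cells of a type and less RNA per cell cannot be told apart either.

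The promoters of the members were searched for sites of regulators known for these genes. RefSeq promoters of build GRCm38.p6 matched 30 of the 38 mouse members, Fbxo32 not among them. Within 250 bases before the gene start, both strands were searched for GTAAACA, a FoxO site, and for TGACNNNGC, the core of the antioxidant response element that NRF1 and NRF2 bind. No FoxO match overlapped an antioxidant match in a member. The FoxO letters were in 3.54% of all genes with a promoter and, of the members, only in Trim63. The antioxidant core was in 11.5% of all genes and in 5 of the 30 members, namely Psmb5, Psmb6, Psmc6, Psmd9 and Psmd12. The promoters below are those of Trim63, the ligase with a FoxO match, of Psmb6, the most abundant subunit with an antioxidant match, and of Psmd8, the subunit called after TAC, which has neither. Capitals mark the matches, which in Trim63 read on the opposite strand (TGTTTAC). The regions are chr4:134314870-134315119 (plus strand), chr11:70525107-70525356 (plus strand) and chr7:29180674-29180923 (minus strand), each read 5′ to 3′ along the gene.
Trim63: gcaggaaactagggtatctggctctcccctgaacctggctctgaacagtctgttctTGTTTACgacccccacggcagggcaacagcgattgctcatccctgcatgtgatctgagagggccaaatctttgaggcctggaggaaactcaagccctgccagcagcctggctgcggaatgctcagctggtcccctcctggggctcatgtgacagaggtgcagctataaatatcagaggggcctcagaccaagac
Psmb6: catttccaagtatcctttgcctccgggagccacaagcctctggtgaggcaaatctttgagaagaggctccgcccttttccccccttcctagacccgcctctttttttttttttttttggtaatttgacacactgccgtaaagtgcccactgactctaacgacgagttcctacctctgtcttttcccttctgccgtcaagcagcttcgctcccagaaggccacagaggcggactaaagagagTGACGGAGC
Psmd8: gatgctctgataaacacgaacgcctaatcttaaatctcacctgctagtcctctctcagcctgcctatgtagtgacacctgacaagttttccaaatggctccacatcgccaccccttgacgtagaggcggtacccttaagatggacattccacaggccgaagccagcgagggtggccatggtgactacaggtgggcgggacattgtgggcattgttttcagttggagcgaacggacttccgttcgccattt
A match is a description of the letters and not of a bound site. The genes themselves lie at chr4:134315120-134329629 (Trim63), chr11:70525367-70527858 (Psmb6) and chr7:29174188-29180701 (Psmd8), and none of them shares exon bases with another gene in GENCODE vM21.

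In hearts without surgery no member was called different between genotypes. At 1 month 0 of 36 members passed an adjusted p of 0.05 in edgeR's quasi-likelihood test, where 0.00612% of all tested genes did, and 0 had an unadjusted p under 0.05. At 3 months 0 of 36 members passed, against 0.0732% of all genes, and again 0 had an unadjusted p under 0.05. DESeq2 called no member at either age. Log2 fold changes at 1 month ran from −0.24 to 0.27 with a median of 0.059 (all genes, −0.0067), and at 3 months from −0.16 to 0.16 with a median of −0.0080 (all genes, 0.00071). Without control libraries 1 and 3 the median at 1 month was −0.052. The 95% interval lay within a log2 fold change of ±1 for 36 of 36 members at both ages, which held for 85.0% and 88.1% of all genes. It lay within ±0.5 for 30 members at 1 month and for 35 at 3 months.

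The members with the smallest p at 1 month were Psmc6, an ATPase, Psmd14 and Psma7, with log2 fold changes of 0.16, 0.27 and −0.12 (adjusted p 0.973 each by edgeR). At 3 months they were the chaperone Psmd9, Psma1 of the alpha ring and Psmd3 of the lid, with −0.16, −0.11 and −0.11 (adjusted p 0.852 to 0.916 by edgeR). No member's groups separated at 1 month (3.01% of all genes), and 1 member's did at 3 months (4.23% of all genes). This was Psmd9, with control libraries at 10.8, 10.9, 9.58 and 9.83 CPM and METTL5-cKO libraries at 9.13, 8.67, 9.48 and 9.57. Psmd9 shares 1849 exon bases with Gm26745 on the opposite strand, and strandedness of the libraries is not given in the sources used here, so its reads could belong to either gene. The catalytic subunits Psmb5 (chymotrypsin-like), Psmb6 and Psmb7 (trypsin-like) had log2 fold changes of 0.14, 0.010 and 0.15 at 1 month, all 3 below 0 without control libraries 1 and 3, and of 0.033, −0.055 and −0.012 at 3 months. No cell type marker was called at either age by edgeR, while at 3 months summed cardiomyocyte markers were 40418 to 42587 CPM in controls and 34941 to 38933 in METTL5-cKO. Macrophage markers summed to 99.96 to 125 and 129 to 169 CPM there, also without overlap. Of the markers tested at 3 months, 7 of 7 for fibroblasts and 0 of 6 for endothelium had a positive log2 fold change.

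**Figure D2:**
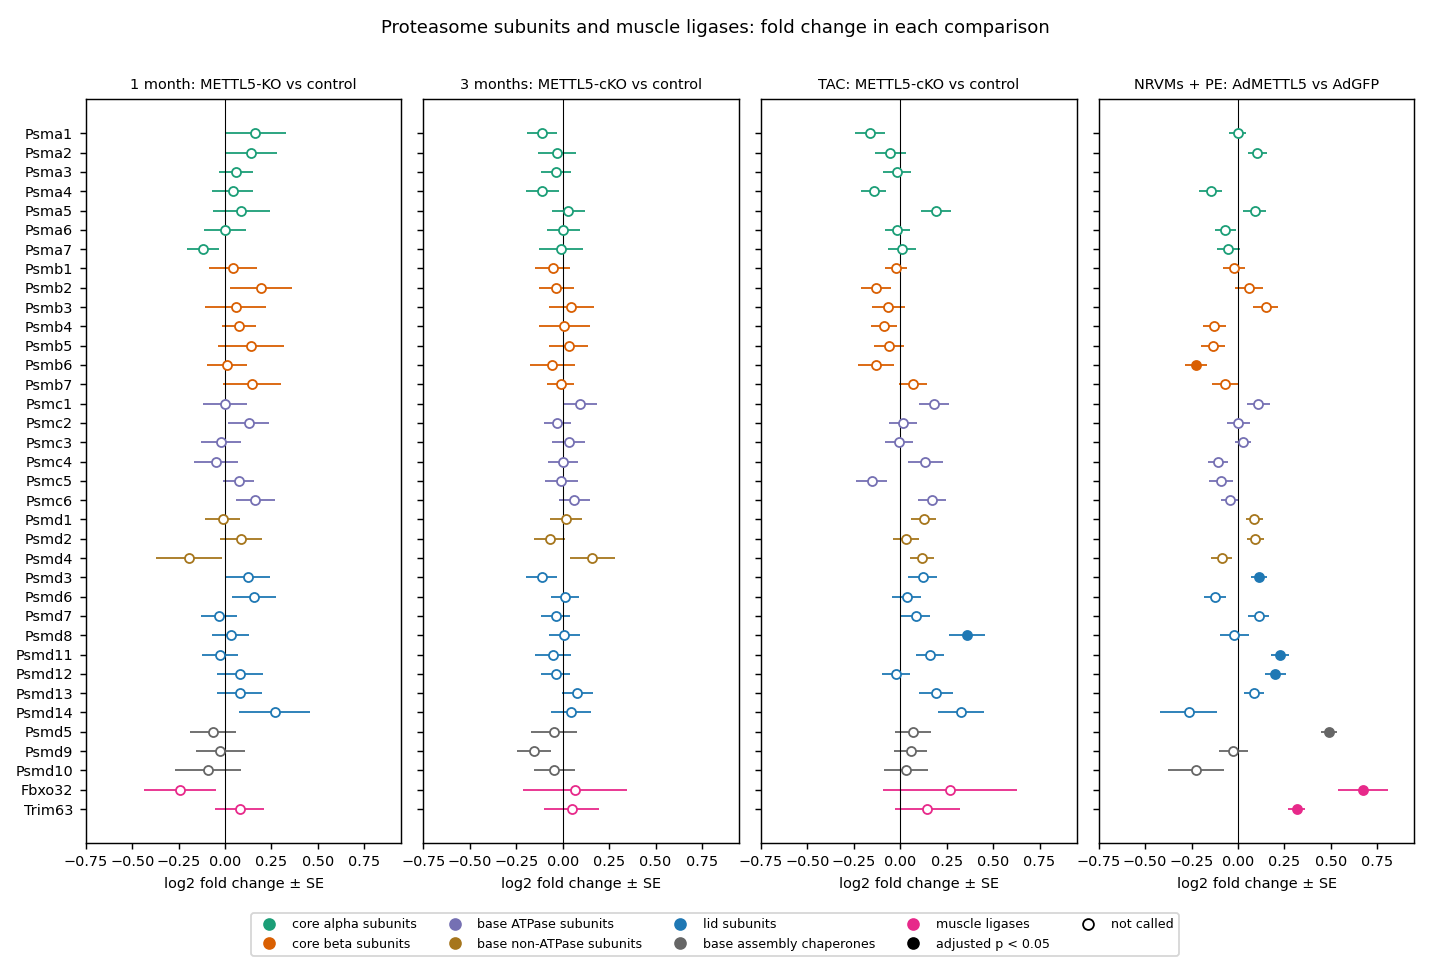
Log2 fold change with its SE for each tested member in the 4 comparisons, coloured by role; filled points passed an adjusted p of 0.05. No point is filled in the resting hearts, 1 (Psmd8) is after TAC, and 7 are in NRVMs, of which Psmb6 alone lies below 0 and loses its call under library-size scaling.

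After TAC, 1 member was called different between METTL5-cKO hearts and controls. Psmd8, a lid subunit, was higher at an adjusted p of 0.05, so that 1 of 36 members was higher against 6.57% of all tested genes, and 0 were lower against 6.10%. Control libraries had 71.4, 62.7, 64.7 and 69.1 CPM of Psmd8, and METTL5-cKO libraries had 98.2, 90.9, 75.7 and 79.0. All METTL5-cKO libraries lay above all controls. The log2 fold change was 0.36 ± 0.096 (SE), a rise of 28.3% (adjusted p 0.0392, edgeR), and the exact two-sided permutation test over 70 labelings gave p = 0.0286, the smallest it can give. The call is marginal. It was lost in 6 of the 8 fits that left out a library (adjusted p 0.0517 to 0.113) and without a filter on low counts (0.0602), while the log2 fold change stayed between 0.29 and 0.42.

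Psmd14 had 28.6, 24.1, 21.1 and 21.2 CPM in control libraries and 30.5, 33.0, 31.1 and 24.7 in METTL5-cKO libraries, a log2 fold change of 0.33 ± 0.12 (SE) that was not called (adjusted p 0.106, edgeR). Control library 1 and METTL5-cKO library 4 overlapped the other group. Without METTL5-cKO library 4, the library nearer to the controls, Psmd14 and Psmd8 were called higher and the ATPase Psmc5 lower, and without control library 1 Psmd14 was called alone. Psma5 of the alpha ring came next by p, with a log2 fold change of 0.19 ± 0.082 (SE) (adjusted p 0.145, edgeR). Groups did not overlap for 2 members, Psmd8 and the ATPase Psmc1, against 18.6% of all genes.

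By role, 7 of the 8 lid subunits and 1 of the 7 tested beta subunits had a positive log2 fold change after TAC, with medians of 0.14 and −0.064, where 49.4% of all genes were positive. The counts were 2 of 7 for the alpha subunits, 4 of 6 for the ATPases, 3 of 3 for the other base subunits and 3 of 3 for the chaperones. Under scaling by library size alone, Psmb5 and Psmb6 too came out above 0 (0.076 and 0.0049), since that scaling moved the median of all genes from −0.0035 to 0.14. Among beta subunits Psmb6 had 79.5, 85.7, 89.5 and 81.9 CPM in control libraries and 76.2, 71.1, 68.9 and 91.3 in METTL5-cKO libraries, of which library 4 was the highest of all. Its log2 fold change was −0.13 ± 0.097 (SE) (adjusted p 0.391, edgeR), and those of Psmb5 and Psmb7 were −0.062 and 0.068. Without METTL5-cKO library 4 the values of Psmb6 and Psmb5 were −0.22 and −0.11, and neither was called. Without METTL5-cKO library 3 they were −0.077 and −0.0011. The 95% interval of Psmb5 ran from −0.25 to 0.12. Summed over all subunits, control libraries held 1873 to 2000.3 CPM and METTL5-cKO libraries 1882 to 2036 CPM. The groups overlapped.

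Cell type markers moved with genotype after TAC. Of 7 fibroblast markers 6 were called higher and none lower, and their sum was 575 to 762 CPM in controls and 920 to 2980 in METTL5-cKO libraries, library 4 being the lowest of the latter. Of 8 cardiomyocyte markers 3 were called lower (sums of 37266 to 41623 and 26734 to 34657 CPM), as were 5 of 6 endothelial markers. Macrophage markers were higher in 2 of 7. Defining markers of skeletal muscle were at or near 0, with sums of at most 1.25 CPM. The part of these cell types in the difference of Psmd8 was not tested.

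The test of whether genotype acted differently after TAC than at 3 months called 0 of 36 members, against 0.00586% of all genes, and DESeq2 called none. Without adjustment 2 of 36 members and 11.8% of all genes had p under 0.05. The members were Psmd8, with an interaction of 0.37 ± 0.12 (SE) on the log2 scale (adjusted p 0.253, edgeR) and Psmd3 with 0.25 ± 0.11 (adjusted p 0.394). In the hearts at 3 months Psmd8 was 60.2 ± 4.99 CPM in controls and 60.6 ± 2.48 in METTL5-cKO (SD, n = 4).

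Fbxo32 and Trim63 varied more between hearts of a group than between genotypes. At 1 month Fbxo32 was at 51.0, 34.9, 35.9 and 43.2 CPM in control libraries and at 42.5, 32.2, 23.9 and 40.8 in METTL5-KO libraries. At 3 months the values were 83.3, 51.7, 46.4 and 49.6 in controls and 87.1, 72.8, 40.04 and 42.0 in METTL5-cKO. High and low libraries stood in both genotypes. After TAC Fbxo32 was at 83.3, 37.1, 33.9 and 42.5 CPM in controls and at 62.5, 77.5, 70.7 and 26.4 in METTL5-cKO. Control library 1 was the highest of these 8 libraries and METTL5-cKO library 4 the lowest, so each was extreme against its own group.

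Log2 fold changes of Fbxo32 were −0.24 ± 0.20 at 1 month, 0.067 ± 0.28 at 3 months and 0.27 ± 0.36 after TAC (SE; adjusted p 0.973, 0.999 and 0.658 by edgeR). The 95% interval after TAC, −0.54 to 1.08, was the only one of a tested heart member that reached past ±1. At 3 months the direction turned when METTL5-cKO library 1, METTL5-cKO library 2 or control library 3 was left out (−0.17, −0.038 and −0.025). Without control library 1 the log2 fold change after TAC was 0.66 (adjusted p 0.204, edgeR), and without METTL5-cKO library 4 it was 0.52 (adjusted p 0.224). The lowest value, 0.12, came without METTL5-cKO library 2. Trim63 followed with smaller steps, at 76.9, 56.5, 45.8 and 58.5 CPM in controls after TAC and 68.2, 77.96, 67.7 and 48.8 in METTL5-cKO. Its log2 fold changes were 0.080 ± 0.13, 0.047 ± 0.15 and 0.14 ± 0.17 in the same order (adjusted p 0.975, 0.999 and 0.617 by edgeR), and without METTL5-cKO library 2 the value at 3 months was −0.11. Leaving out 1 library moved the value between 0.00014 (control 3) and 0.19 (control 1) at 1 month, and between 0.048 (control 3) and 0.30 (control 1) after TAC. Fbxo32 shares 186 exon bases with Gm15943 on the opposite strand.

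**Figure D3:**
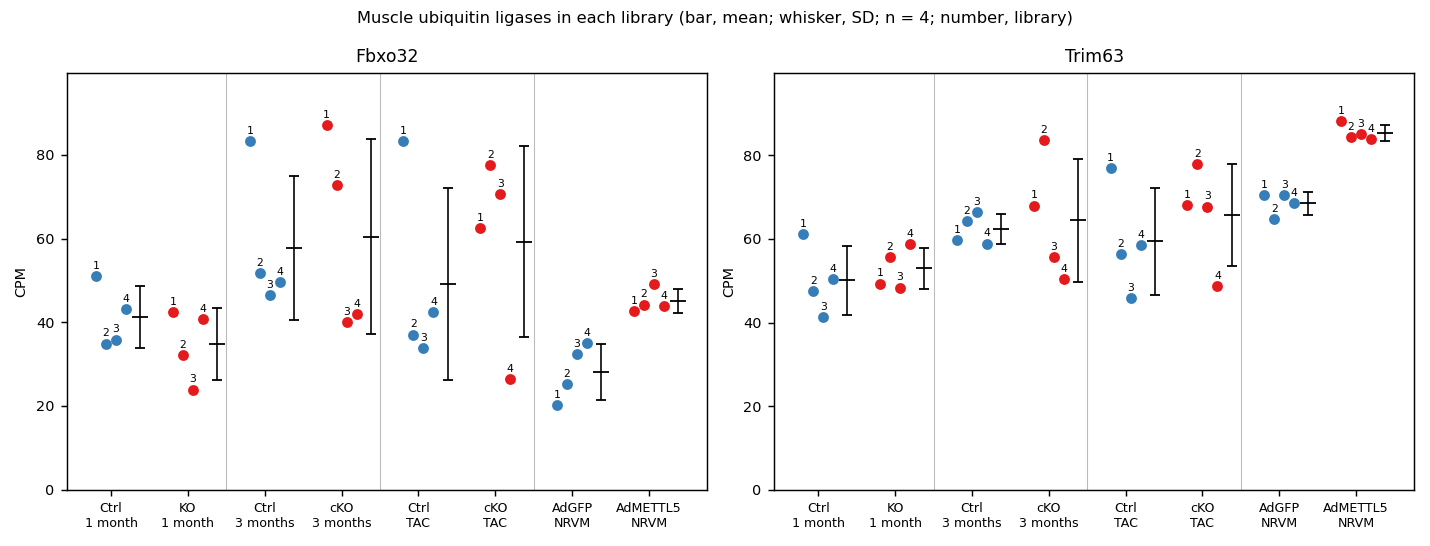
CPM of Fbxo32 and Trim63 in each library by group; blue, control or AdGFP, red, METTL5-KO, METTL5-cKO or AdMETTL5, with mean and SD (n = 4). In hearts high and low libraries occur in both genotypes, and in NRVMs all AdMETTL5 libraries lie above all AdGFP libraries.

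Over the 24 heart libraries, with each group's mean subtracted, the genes whose log2 CPM followed Fbxo32 most closely were Nabp1 (Pearson r 0.91), Pik3ip1, an inhibitor of PI3 kinase (r 0.90), and Klhl38 (r 0.90). Trim63 stood at rank 43 of 17596 genes (r 0.77). The genes most like Trim63 were Vps26c, Zfp93 and Satb1 (r 0.82, 0.80 and 0.80), with Fbxo32 at rank 9. For the proteasome subunits the median r was −0.033 with Fbxo32 and 0.069 with Trim63 over 34 genes, whereas the median over pairs of subunits was 0.38. These correlations share libraries and scaling and are given as a description.

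In NRVMs, 6 of 35 members were higher with AdMETTL5 (27.1% of all tested genes) and 1 was lower (25.7%). Both ligases rose. Of the regulatory particle, the chaperone Psmd5 and the lid subunits Psmd11, Psmd12 and Psmd3 rose, and of the core, Psmb6 fell. The shares of members are below those of all genes. Unadjusted p was under 0.05 for 9 of 35 members and for 58.2% of all genes. Log2 fold changes of the members ran from −0.27 to 0.68 with a median of −0.00079 (all genes, −0.0022), and the 95% interval lay within ±1 for 35 of 35 members, against 86.0% of all genes. Summed subunits were at 3814 to 4301 CPM with AdGFP and at 3891 to 4231 with AdMETTL5. The ranges overlapped. The AdGFP libraries were not even. In libraries 1 and 2, 31 and 32 of 33 subunits lay above the AdGFP mean, against 5 and 2 in libraries 3 and 4. The source of this split was not tested.

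Fbxo32 was at 20.2, 25.2, 32.3 and 34.9 CPM in AdGFP libraries and at 42.7, 44.2, 49.2 and 43.8 in AdMETTL5 libraries. The groups did not overlap, and the AdGFP libraries were the more spread, with libraries 1 and 2 below libraries 3 and 4. The rise was 59.7% (log2 fold change 0.68 ± 0.13 SE, adjusted p 0.00113, edgeR). Trim63 was at 70.5, 64.7, 70.6 and 68.6 CPM with AdGFP and at 88.3, 84.4, 85.1 and 83.8 with AdMETTL5, again without overlap. It rose by 24.5% (log2 fold change 0.32 ± 0.045 SE, adjusted p 0.000105, edgeR). Both calls held in each of the 8 fits that left out a library, with log2 fold changes of 0.54 to 0.80 for Fbxo32 and 0.29 to 0.33 for Trim63.

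Psmd5 showed the most uniform rise. Its AdGFP libraries had 39.5, 40.7, 40.5 and 40.2 CPM and its AdMETTL5 libraries 56.1, 56.2, 57.7 and 56.0. The log2 fold change was 0.49 ± 0.043 (SE), a rise of 40.5% (adjusted p 2.02e-06, edgeR). The other base chaperones were not called, with log2 fold changes of −0.026 for Psmd9 and −0.23 ± 0.15 for Psmd10. In hearts Psmd5 had values of −0.065, −0.047 and 0.066 in the order of the comparisons, none of them called.

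Of the lid, Psmd11, a scaffold subunit, was at 118, 123, 114 and 110.5 CPM with AdGFP and at 141, 134, 139 and 129.7 with AdMETTL5 (log2 fold change 0.23, adjusted p 0.0016, edgeR). Psmd12, also of the lid, was at 122, 123, 113 and 103 CPM with AdGFP and at 137, 130.3, 133 and 129 with AdMETTL5 (0.20, adjusted p 0.00963, edgeR). Psmd3 rose least, from 209 ± 6.54 to 226 ± 4.89 CPM (SD, n = 4; log2 fold change 0.11, adjusted p 0.0353, edgeR), and lost its call in 5 of the 8 fits without a library. In all 3 genes the groups did not overlap. The remaining 5 lid subunits were not called. Psmd14 had 34.6, 49.5, 45.8 and 51.2 CPM with AdGFP and 46.4, 26.2, 41.1 and 36.9 with AdMETTL5, overlapping groups with a log2 fold change of −0.27 ± 0.15 (SE).

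Psmb6 was the member that fell. Its libraries were at 77.99, 76.2, 71.6 and 74.0 CPM with AdGFP and at 67.0, 69.1, 62.3 and 57.9 with AdMETTL5, without overlap. The drop was 14.5% (log2 fold change −0.23 ± 0.059 SE, adjusted p 0.00652, edgeR), held in each of the 8 fits without a library (−0.26 to −0.18) and was not called under scaling by library size (−0.092, adjusted p 0.159). Psmb5 (−0.14 ± 0.065, adjusted p 0.0976) and Psmb7 (−0.070, adjusted p 0.434) were not called by edgeR, and both had positive values under that scaling (0.00017 and 0.066). Groups did not overlap for 8 members, against 48.4% of all genes. These were the called members and Psmd2 of the base, at 281 ± 14.0 and 300.1 ± 1.08 CPM (log2 fold change 0.094, adjusted p 0.0985, edgeR).

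**Figure D4:**
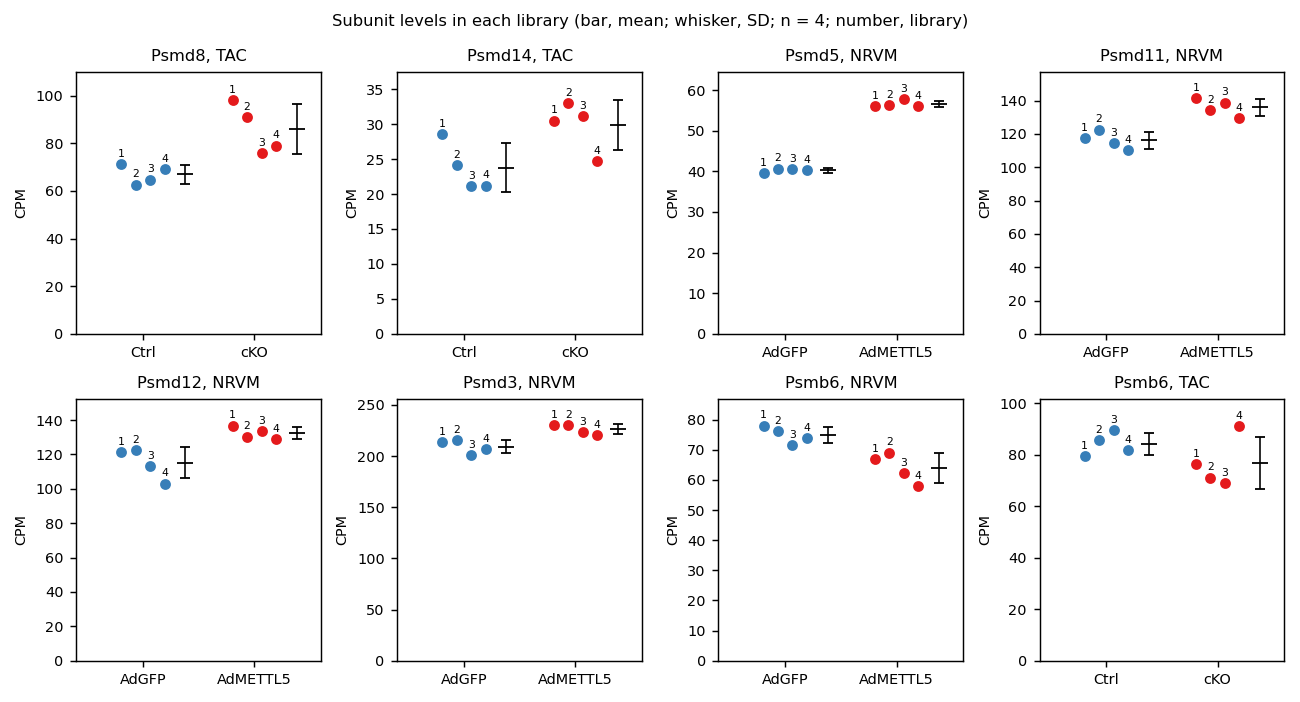
CPM in each library for Psmd8 and Psmd14 after TAC, for the subunits called in NRVMs, and for Psmb6 after TAC beside its values in NRVMs; mean and SD stand beside the points (n = 4). Groups do not overlap for Psmd8 after TAC and for the NRVM panels, and overlap for Psmd14 and Psmb6 after TAC.

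Scaling by library size alone moved the median of all genes in NRVMs to 0.13 and the share of higher genes among the calls from 51.4% to 71.5%. After TAC that share moved from 51.9% to 79.7%. With that scaling 18 members were higher and none lower in NRVMs. Relative to the median of all genes the median of the members was 0.0014 under the main scaling and 0.0015 under this one. Cardiomyocyte markers were lower with AdMETTL5 in 8 of 8, with sums of 17059 to 19872 CPM for AdGFP and 8199 to 9121 for AdMETTL5. Fibroblast markers were lower in 5 of 6 and smooth muscle markers higher in 2 of 4. The part of the makeup or state of the cultures in the changes of the members was not tested.

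Side by side, TAC and NRVMs, which share no library, gave different members. Psmd8 had log2 fold changes of 0.36 and −0.019, Psmd14 of 0.33 and −0.27, Psmd5 of 0.066 and 0.49, Psmd11 of 0.16 and 0.23, and Psmb6 of −0.13 and −0.23. Over 33 subunits Pearson's r was 0.11 (Spearman's rho 0.21), a value across genes, which are not independent replicates. The direction was shared by 18 of the 33, and the share over all genes was not computed. METTL5 was deleted in the TAC comparison and added in NRVMs, so the perturbations are opposite. Species, genotype, virus and stimulus differ between these comparisons, and their difference was not tested.

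Other genes of the pathway reached larger log2 fold changes than the members in NRVMs. In lists chosen by function, 5 of 5 immunoproteasome genes were higher, where 27.1% of all tested genes were higher and 25.7% lower. Psmb8, Psmb9 and Psmb10 encode subunits that replace the catalytic ones in cells exposed to interferon. Psme1 and Psme2 encode subunits of an activating cap. Psmb9 was at 4.03 to 5.87 CPM with AdGFP and at 15.7 to 20.6 with AdMETTL5, a log2 fold change of 1.98 ± 0.13 (SE), and Psmb8 at 3.91 to 4.33 and 9.79 to 16.7 CPM (1.71 ± 0.15). Psmb10, Psme2 and Psme1 followed with 0.75, 0.49 and 0.22. By CPM Psmb8, Psmb9 and Psmb10 remained low, with group means of at most 20.1. Of the other caps and inhibitors 3 of 4 were higher, led by Psme4, an alternative cap of the core, at 248 to 264 CPM with AdGFP and 374 to 431 with AdMETTL5 (0.64 ± 0.050 SE). Of the chaperones that assemble the core 2 of 5 were lower, Psmg1 (−0.57) and Psmg4 (−0.35).

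Of 14 other muscle ligases in NRVMs 6 were higher and 6 lower, where 27.1% of all tested genes were higher and 25.7% lower. The smallest adjusted p of all lists belonged to Trim55 (MuRF2), which fell from 420.3 to 185 CPM, Cblb, which rose from 62.5 to 109, Psmb9, Fbxl22, which fell from 105 to 44.3, and Mdm2, the ligase of p53, which rose from 69.2 to 124 (group means). Their adjusted p ran from 1.45e-08 to 1.93e-07 in edgeR's test. Of the transcription factors of the proteasome and of atrophy 2 of 9 were higher, Nfe2l2 (NRF2; 0.43) and Ddi2, the protease that activates NRF1 (0.27), and 2 were lower, Nfe2l1 (NRF1; −0.17) and Klf15 (−0.70). Both rows of Rps27a, which encodes a fusion of ubiquitin and a ribosomal protein, fell (−0.22 and −0.20), and as they share the symbol they may share reads. Of the 5 rows of ubiquitin genes tested, 1 was called higher and 2 lower, with log2 fold changes from −0.22 to 0.56. Of the E1 and E2 enzymes 4 of 17 were higher and 2 lower, of VCP and its shuttle factors 3 of 8 were higher and 2 lower, and of the remaining partners of the regulatory particle 1 of 5 was lower.

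After TAC few genes of these lists were called, where 6.57% of all tested genes were higher and 6.10% lower. Of 5 immunoproteasome genes 1 was lower, Psme1, the alpha subunit of an activating cap, at 78.1 to 84.7 CPM in controls and 54.8 to 75.1 in METTL5-cKO (log2 fold change −0.43 ± 0.11 SE, adjusted p 0.0319, edgeR), with library 4 the nearest to the controls. A fit of Psme1 without that library is not given. Psmb8 and Psmb9 were not called. Of the 5 genes 1 had a positive log2 fold change, with a range of −0.46 to 0.21 and a median of −0.42. Their sum was 145 to 160 CPM in controls and 117 to 143 in METTL5-cKO, without overlap, and was not tested. Of the E1 and E2 enzymes Ube2g2, an E2 of the endoplasmic reticulum, rose by 0.32 (adjusted p 0.0477), and of the muscle ligases Asb2 fell by 0.39 on the log2 scale (adjusted p 0.0483, edgeR). Foxo6 was lower at low level, 0.91 and 0.47 CPM. Foxo1, Foxo3 and Foxo4 were not called. At 1 and 3 months no gene of these lists was called by edgeR.

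**Figure D5:**
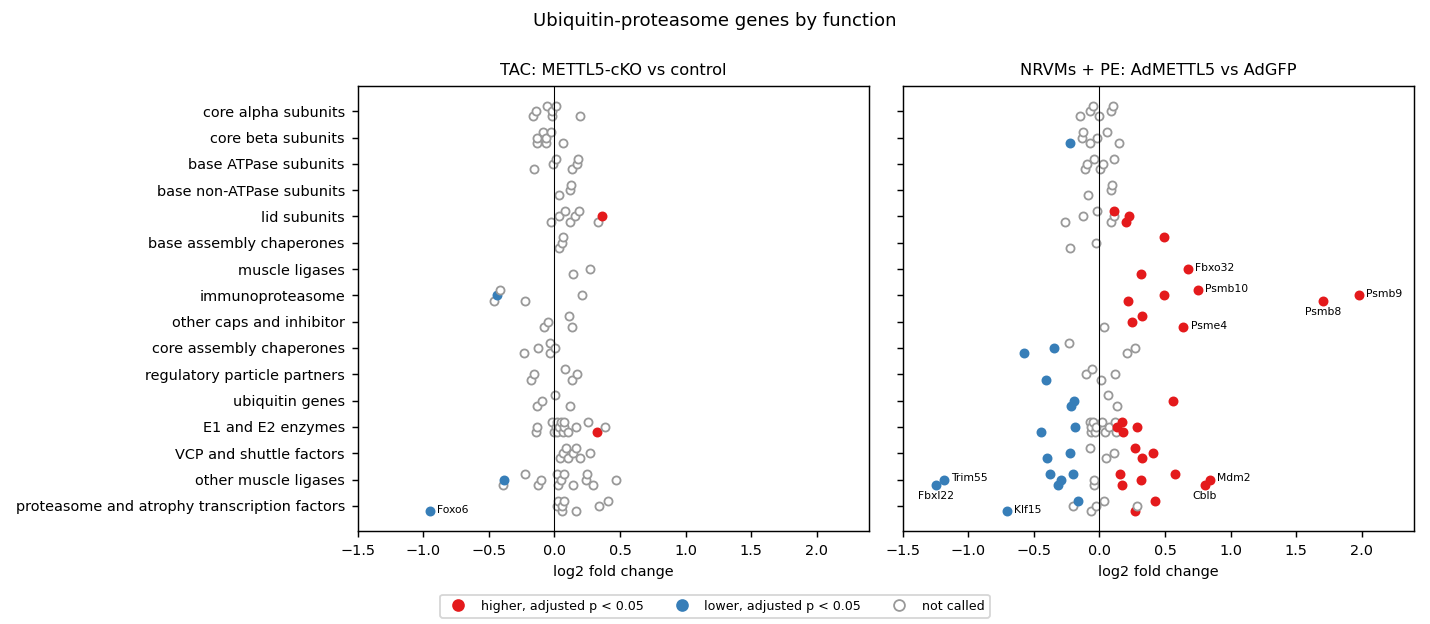
Log2 fold change of every tested gene of the pathway lists after TAC and in NRVMs; red, higher, blue, lower, open, not called at an adjusted p of 0.05, with names for calls past 0.6. In NRVMs the core, base and lid rows lie close to 0 and the immunoproteasome row reaches 1.98 (Psmb9).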

How the data were processed

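Per the labels and the submitters' processing notes, the authors aligned reads with HISAT2 2.0.4 to GRCm38 or Rnor_6.0, and StringTie 2.1.4 gave the deposited estimated counts per gene (expected counts, whole numbers, not normalized). Strandedness and annotation release are not given in the sources used here. DESeq2 1.4.5 is named too, and the deposited tables hold no fold changes. Rows were matched to members by symbol.

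Members and gene lists were chosen with earlier results of these data known. Each table was fitted alone in edgeR 4.0.16 (R 4.3.3; quasi-likelihood test, trimmed mean of M values scaling, filterByExpr with a minimum count of 10 and a total of 15). A gene was called at a Benjamini-Hochberg adjusted p under 0.05 over all genes tested, with no minimum fold. CPM are counts over the library total times its scaling factor, in the usual unit of cpm in edgeR, and SE is the log2 fold change over the root of the F statistic. Intervals used the t distribution of the fit. The interaction used 16 libraries. Exact two-sided permutation tests used log2 CPM with a prior count of 2. DESeq2 1.42.0, other scalings and filters, each library left out and, at 1 month, a replicate block were alternatives. One more, without control libraries 1 and 3 at 1 month, was chosen after seeing the data. The fits were tested on simulated data.

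In each comparison the genes named were Fbxo32, Trim63, Psmb5, Psmb6, Psmb7, of the other members the 10 with the smallest adjusted p under 0.05 (3 by p where fewer passed), the 5 pathway genes with the smallest adjusted p under 0.05, and Mettl5. Any other gene was named after its values were seen. Columns were matched to single samples at 1 month and to groups elsewhere, where libraries were numbered by ascending column number. Within groups no pair of libraries was a duplicate (smallest chi-square per degree of freedom 2.16), and pairs across groups were not compared. Adjacent or copied genes could share reads: pseudogene rows of Psma5, Psmb5, Psmb6 and Psmb7 in mouse held at most 92 counts. The rat row Psma3l held 2251 to 2687 counts. A depth of 14324700 to 21804907 counts limits precision mainly for Psma8 and Psmb11, and intervals cover the spread between libraries.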

Additional observations from a re-analysis of the deposited data

Results flagged for a closer look

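In 5 of 74 group-wise sets of 4 libraries for the members named and for the summed subunits, 1 library lay far from the other 3 by Dixon's ratio. Chance gives about 1 in 20 such sets. Fbxo32 in 3-month controls was 83.3 CPM in library 1 and 46.4 to 51.7 in the others. Psmb5 was 32.4 CPM in METTL5-KO library 4 at 1 month, against 25.3 to 26.2 in the others. In 3-month METTL5-cKO library 1 Psmb5 was 37.6 CPM, against 42.4 to 43.3. Psmd3 in control library 4 at 3 months was 75.6 CPM, against 68.4 to 69.2. Psmd5 in AdMETTL5 library 3 was 57.7 CPM, against 56.0 to 56.2, and this library moved the fold change of Psmd5 by less than its SE.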

How the results depend on the processing

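Of 688 values recomputed under an alternative, 624 were rated the same. For single genes this meant the same direction and side of the threshold. For counts of members it meant a ratio within a set limit. For medians it meant a shift smaller than the SD within groups, which allows a change of sign. Scaling by library size gave 6 members higher after TAC, 18 higher and 0 lower in NRVMs, medians of the members of 0.045 at 3 months, 0.18 after TAC and 0.13 in NRVMs, and turned Psmb7 at 3 months (0.042), Psmb5 and Psmb6 after TAC (0.076 and 0.0049) and Psmb5 and Psmb7 in NRVMs (0.00017 and 0.066). With an absolute log2 fold change over 1 required, 0 members were higher after TAC and 0 higher or lower in NRVMs. At an unadjusted p under 0.05, 4 members passed after TAC, all higher, 9 in NRVMs, of which 2 were lower, and 2 for the interaction. Of all genes 31.0%, 58.2% and 11.8% passed in either direction. Without a filter on low counts 0 were higher after TAC, and DESeq2 gave 2 lower in NRVMs, Psma4 and Psmb6. Without control libraries 1 and 3 at 1 month (chosen after seeing the data) the median was −0.052, and Psmb5, Psmb6, Psmb7 and Psmd14 turned to −0.12, −0.11, −0.11 and −0.028.

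With each library left out in turn, 0 to 2 members were higher and 0 to 1 lower after TAC, and 5 to 9 higher and 1 to 3 lower in NRVMs. Ranges were −0.17 to 0.30 for Fbxo32 and −0.11 to 0.15 for Trim63 at 3 months, −0.011 to 0.59 for the interaction of Fbxo32, −0.053 to 0.055 for Psmb6 at 1 month, and −0.023 to 0.11, −0.14 to 0.00066 and −0.044 to 0.0063 for Psmb5, Psmb6 and Psmb7 at 3 months. The causes were not tested, beyond the shift of all genes under library-size scaling.

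At 1 month libraries of the same replicate number deviated with r of 0.24, 0.12, −0.11 and 0.078. These values show no clear pairing, but so few cannot decide whether equal numbers mark a pair. With a replicate block 0 members were called there, the median was 0.067, Fbxo32 −0.26 and Trim63 0.090. The other tables carry no numbers that could serve as a block.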

Other observations

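In a list of 8 genes known to rise in wasting muscle, most of them of autophagy and the lysosome, 2 were higher in METTL5-cKO hearts after TAC, Gabarapl1 and Eif4ebp1. Of all tested genes 6.57% were higher there. Gabarapl1, a protein of the autophagosome membrane, was at 61.9, 45.3, 45.7 and 43.3 CPM in control libraries and at 79.4, 87.5, 75.4 and 56.2 in METTL5-cKO libraries (log2 fold change 0.61 ± 0.15 SE, adjusted p 0.0345, edgeR). Control library 1 and METTL5-cKO library 4 overlapped, the same libraries that were extreme for Fbxo32. Eif4ebp1, a repressor of translation and no gene of autophagy, was at 59.3 to 69.0 CPM in controls and at 83.2 to 106 in METTL5-cKO (0.54 ± 0.095 SE, adjusted p 0.0127, edgeR), without overlap. In NRVMs 3 of the 8 were higher with AdMETTL5, namely Sqstm1, the receptor of ubiquitinated cargo (0.61), Bnip3 (0.43) and Gabarapl1 (0.37). Of all tested genes 27.1% were higher in NRVMs. At 1 month all 8 had a negative log2 fold change, from −0.73 to −0.15, and none was called. Their sum was 1061 CPM in control library 1, 587 to 633 in the other controls and 565 to 641 in METTL5-KO. The groups overlapped, with control library 1 far above all others.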
